A study of Mus musculus with 2 samples.

Results

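Cytochrome c oxidase, complex IV of the mitochondrial electron transport chain, holds several nuclear-encoded subunits that exist as a pair of isoforms, one made in most tissues and one restricted to certain tissues. The data described here are the transcripts of 5 such pairs, 10 genes in all, in mouse gastrocnemius muscle. The ubiquitous forms are Cox4i1, Cox6a1, Cox6b1, Cox7a2 and Cox8a, and the tissue-specific forms are Cox4i2, Cox6a2, Cox6b2, Cox7a1 and Cox8b. The genes were chosen by name as a structural family, when their log2 differences between these arrays were already known, so that those differences are a description and support nothing. Probe sets were taken where the platform annotation gave a member as the symbol, which yielded 1 probe set for each of the 10 genes, of 19938 genes measured by 21789 probe sets with 1 gene symbol.

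The series consists of 2 arrays, 1 for control and 1 for PGC-1β(i)skm-/- gastrocnemius, each hybridized with RNA pooled from 3 mice. All mice were C57BL/6 males, 8 weeks old, homozygous for the floxed PGC-1β L2 allele, and had been injected with tamoxifen, 1 mg daily over 5 days, at 7 weeks of age. Mutants also carried the HSA-Cre-ERT2 transgene, in which the human skeletal actin regulatory elements drive a tamoxifen-dependent recombinase in myofibres, so that exon 5 of PGC-1β is excised in these cells and not in the other cells of the muscle. Controls lacked the transgene, although the labels call them wild-type, and the effect of the transgene cannot be told apart from that of the deletion.

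With 1 array per genotype, no difference has an error from mice, no test was made, and precision is limited by the number of arrays. The values are log2 signals per probe set after RMA, a procedure that subtracts background, gives all arrays the same distribution of signals and summarizes the probes of a set. A log2 difference is PGC-1β(i)skm-/- minus control, and the ratio is 2 raised to that difference. The thresholds of the study's methods were used, a ratio no greater than 0.8 for a gene called lower and no less than 1.2 for a gene called higher. The log2 signal of Ppargc1b, the targeted gene, was 7.87 in control and 7.06 in mutant muscle (ratio 0.569). This probe set is not limited to the excised exon, so that it checks the genotype only in part. Myofibre markers were bright on both arrays, with Acta1, skeletal actin, at 13.88 and 13.91 and Ckm, muscle creatine kinase, at 13.82 and 13.86.

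Complex IV takes electrons from cytochrome c and passes them to oxygen while pumping protons across the inner membrane. Its catalytic core is encoded by mitochondrial DNA, and the surrounding nuclear-encoded subunits serve assembly, stability and regulation. In heart and skeletal muscle, Cox6a2, Cox7a1 and, in rodents, Cox8b replace their ubiquitous counterparts to a large extent, whereas Cox4i2 is best known from lung and from vascular cells, and Cox6b2 from testis. PGC-1β is a coactivator of transcription factors that act on nuclear genes of oxidative phosphorylation, among them the oestrogen-related receptors (ERRs) and nuclear respiratory factor (NRF) proteins.

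The upstream sequences of the pairs are shown because the ubiquitous and the muscle forms, which are made for the same place in the enzyme, are transcribed from separate promoters. RefSeq promoters of GRCm38.p6 were found for 7 of the 10 members, Cox6a1, Cox6b1, Cox6b2, Cox7a1, Cox7a2, Cox8a and Cox8b, and 4 of the 7 lie on chromosome 7. The letters searched, on both strands of the 300 bases from 250 before to 50 after the start, were CCGGAAG, the core of sites for ETS factors such as GABPA (NRF-2), CGCATGC, the core of sites for NRF-1, TNAAGGTCA for ERRs and TATAAA for a TATA box. Printed here are the 200 bases before the start and the 30 bases after it, on the gene's strand, with matches in capitals. Cox6a1 is given as the only member called higher, Cox6b1 as the member with the largest decrease among those with an entry, and Cox8a and Cox8b as a complete pair of which the ubiquitous form was lower and the muscle form was not.
Cox6a1 (chr5:115348929-115349158, minus strand): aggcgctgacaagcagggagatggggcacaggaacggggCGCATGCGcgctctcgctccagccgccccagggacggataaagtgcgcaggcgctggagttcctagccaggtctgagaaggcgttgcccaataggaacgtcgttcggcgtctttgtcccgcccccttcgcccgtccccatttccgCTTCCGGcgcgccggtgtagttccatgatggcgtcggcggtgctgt
Cox6b1 (chr7:30626085-30626314, minus strand): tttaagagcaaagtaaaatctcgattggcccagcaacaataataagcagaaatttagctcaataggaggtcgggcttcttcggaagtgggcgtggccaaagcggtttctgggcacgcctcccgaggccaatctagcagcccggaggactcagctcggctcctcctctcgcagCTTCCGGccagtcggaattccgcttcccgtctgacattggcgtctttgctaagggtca
Cox8a (chr19:7217587-7217816, minus strand): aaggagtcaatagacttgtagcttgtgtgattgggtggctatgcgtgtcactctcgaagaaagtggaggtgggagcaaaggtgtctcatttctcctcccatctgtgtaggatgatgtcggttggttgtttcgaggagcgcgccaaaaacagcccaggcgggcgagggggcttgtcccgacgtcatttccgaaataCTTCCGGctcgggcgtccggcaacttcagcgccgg
Cox8b (chr7:140900417-140900646, minus strand): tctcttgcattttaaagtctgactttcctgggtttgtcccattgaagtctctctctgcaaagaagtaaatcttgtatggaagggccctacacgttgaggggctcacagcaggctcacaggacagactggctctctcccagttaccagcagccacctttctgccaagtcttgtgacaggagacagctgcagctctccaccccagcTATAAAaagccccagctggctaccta

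The CCGGAAG letters were present in 3 of 4 promoters of ubiquitous forms, Cox6a1, Cox6b1 and Cox8a, and in 0 of 3 of tissue-specific forms, against 8.86% of all 32851 promoters. With the start counted as base 1, the match lies at −16 to −10 in Cox6a1 and at −28 to −22 in Cox6b1, and Cox8a has 1 match at −5 to 2 and another at 33 to 39, outside the printed stretch. The NRF-1 letters occurred in Cox6a1, as overlapping matches of both strands from −161 to −154, and in 3.58% of all promoters. TATAAA occurred in Cox8b at bases 5 to 10, after the annotated start and so not where a TATA box lies, and in 13.6% of all promoters. The ERR letters occurred in 0 of 7 member promoters and in 1.28% of all. The 4 ubiquitous forms had 17 to 32 CpG dinucleotides in the 300 bases, and the 3 tissue-specific forms had 2 to 10, with a median of 7 over all promoters. The CCGGAAG and CGCATGC letters each contain a CpG, and the shares over all promoters were not matched for the number of CpG dinucleotides. A match describes letters in a short window and not a bound site. Cox6a1, which had the most CpG dinucleotides (32), shares the CCGGAAG letters with Cox6b1 and Cox8a, and its difference between the arrays had the opposite sign. Cox7a2 had no match of these letters and a negative difference, and Cox4i1 had no promoter entry. Whether the letters relate to the differences was not tested.

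Of the 10 members, 1 was called lower, Cox4i1, and 1 was called higher, Cox6a1, both of them ubiquitous forms. Over all probe sets with 1 gene symbol, 0.665% were called lower and 1.65% higher. At the mirrored thresholds of 1/1.2 or less and 1/0.8 or more, which 1.70% and 0.698% of probe sets passed, 1 member was called lower and 0 higher, and at 1.5-fold, which 0.0413% and 0.0184% passed, 0 members were called. Since the members were chosen with these values known, nothing is read from the shares. Next to the thresholds, the ratio of Cox4i1 was 0.771 and that of Cox6b1, the nearest member not called lower, 0.844. The ratio of Cox6a1 was 1.23 and that of Cox6a2, the nearest member not called higher, 1.06.

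**Figure D1:**
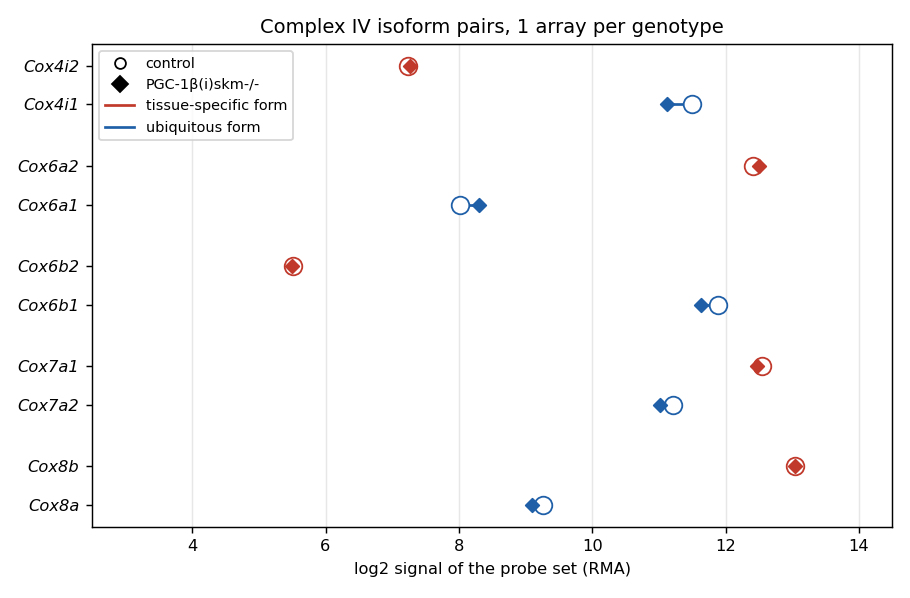
Log2 signal (horizontal axis) of the probe set of each member, ordered by pair, in control (open circles) and PGC-1β(i)skm-/- (filled diamonds) gastrocnemius, 1 array each, with tissue-specific forms in red and ubiquitous forms in blue. Control and mutant symbols of the red genes nearly coincide, Cox4i1, Cox6b1, Cox7a2 and Cox8a lie lower in the mutant, and Cox6a1 lies higher; levels of different genes are not comparable.

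Cox4i1 encodes the common form of subunit IV, which enters the enzyme early in its assembly and carries a site of regulation by ATP. Its log2 signal was 11.49 in control and 11.12 in mutant muscle, a difference of −0.37 and a signal 22.9% lower. Counted from the lowest difference, it was at rank 74 of 21789 probe sets. Cox4i2, the form induced by low oxygen in lung and vascular cells, had log2 signals of 7.24 and 7.27, a difference of 0.03. Of the forms of subunit IV, the common one was lower on the mutant array, and the other differed by 2.23%. No measure of detection was used, so that the transcript of Cox4i2 is not known to be detected, although its signal was above the median of 6.00 of all probe sets on the control array.

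Cox6a1 and Cox6a2 encode subunit VIa, at the interface between the monomers of the enzyme. The log2 signal of Cox6a1 was 8.01 in control and 8.30 in mutant muscle, a difference of 0.29 at rank 248 from the highest of all probe sets. Cox6a2, the heart and muscle form, had log2 signals of 12.40 and 12.49, a difference of 0.09. This was the only pair in which both forms had a higher signal on the mutant array, and the ubiquitous form had the larger increase.

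Cox6b1 encodes the subunit that faces the intermembrane space, where cytochrome c docks. Its log2 signal was 11.88 in control and 11.64 in mutant muscle, a difference of −0.25 (15.6% lower), at rank 482 from the lowest. Cox6b2, the testis form, had log2 signals of 5.51 and 5.50. This probe set was dim, below the median of 6.00 of all probe sets on the control array, and no measure of detection was used, so that its difference of −0.0084 is not known to be that of a detected transcript.

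Cox7a2 and Cox7a1 encode subunit VIIa, which lies at the surface where complex IV meets its neighbours. The log2 signal of Cox7a2 was 11.21 in control and 11.02 in mutant muscle, a difference of −0.19 (12.2% lower). Cox7a1, the form of heart and skeletal muscle, had log2 signals of 12.54 and 12.47, a difference of −0.08 (5.19% lower). Of the 3 pairs with a muscle form, this was the one in which both forms had a lower signal on the mutant array.

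Cox8a and Cox8b encode the smallest subunit. The log2 signal of Cox8a was 9.27 in control and 9.10 in mutant muscle, a difference of −0.17 (11.1% lower). Cox8b, the muscle form, had a log2 signal of 13.04 on both arrays, with a difference of 0.0017. Of all members, it had the smallest difference.

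Described by form, 4 of 5 ubiquitous isoforms and 2 of 5 tissue-specific isoforms had a negative log2 difference, beside 50.0% of all probe sets with 1 gene symbol. The median difference was −0.19 for the ubiquitous and 0.0017 for the tissue-specific isoforms, and −0.0001 for all probe sets. The differences of the tissue-specific forms ran from −0.08 to 0.09. Those of the ubiquitous forms were at least 0.17 in size in either direction, a size reached by 12.8% of all probe sets and by 7.97% of those with a mean log2 signal of 11 or above. The sizes of the differences therefore did not overlap between the forms, but a difference of the size of Cox7a2 or Cox8a is common on these arrays.

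As the muscle forms Cox6a2, Cox7a1 and Cox8b were among the brightest probe sets, their signals were set beside the spread at high signal. The highest log2 signal on the control array was 14.25. Over the 715 probe sets with a mean of 11 or above, which include 6 members, the 5th and 95th percentiles of the differences were −0.20 and 0.12, with a standard deviation of 0.10. In this range, 1.26% were called lower and 0.140% higher, and Cox4i1 was 1 of 9 called lower. Among 275 probe sets with a mean of 12 or above, 2 were called lower, and both were of Cox5b, another subunit of complex IV. Their means of 12.25 and 12.21 were somewhat below those of Cox6a2 (12.45) and Cox7a1 (12.50), and the dimmer probe set of Cox7b, with a mean of 12.31, had a difference of −0.03. Probe sets of nuclear-encoded complex IV genes with signals near that of Cox8b, those of Cox6c and the brighter one of Cox7b, had differences of −0.11, −0.05 and −0.04. Those of mt-Co2, from mitochondrial DNA, had means of 13.40 and 13.32 and differences of 0.038 and 0.035. Whether high signal limits the differences of the muscle forms was not tested.

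**Figure D2:**
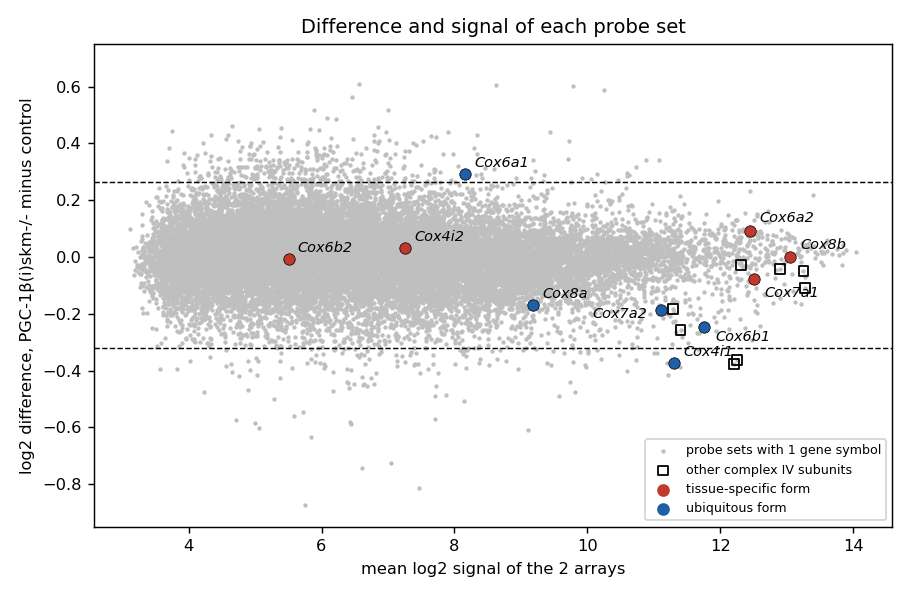
Log2 difference of mutant and control signals (vertical axis, PGC-1β(i)skm-/- minus control) against the mean log2 signal of the arrays (horizontal axis) for all probe sets with 1 gene symbol (grey), tissue-specific forms (red), ubiquitous forms (blue) and other complex IV subunits (open squares), with dashed lines at ratios of 0.8 and 1.2. Cox4i1 lies below the lower line and Cox6a1 above the upper one, with the red points within 0.09 of 0.

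The relation between the forms of a pair was described by the log2 difference of the tissue-specific form minus that of the ubiquitous form, which is the change in the ratio of their signals between control and mutant muscle. It sets no level of a probe set against another, but RMA compresses differences of dim probe sets, which carries over to it. It was above 0 in 4 of 5 pairs, and in 3 of the 4 pairs left without Cox6b2, whose probe set was dim. For Cox4i2 and Cox4i1 it was 0.41, equal to a 1.33-fold higher ratio of signals in mutant muscle, for Cox8b and Cox8a 0.17, and for Cox7a1 and Cox7a2 0.11. For Cox6b2 and Cox6b1 it was 0.24, which is nearly the difference of Cox6b1 alone, with Cox6b2 not known to be detected. For Cox6a2 and Cox6a1 it was −0.20, which is a ratio of signals 0.869 times that in control muscle. The values of the Cox4 and Cox8 pairs also come mostly from the ubiquitous form, with differences of −0.37 for Cox4i1 and −0.17 for Cox8a. In the Cox4 and Cox6b pairs the tissue-specific form is not the form known from muscle, and of the 3 pairs with a muscle form, 2 were above 0.

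The same value was computed for 9 other pairs of muscle and more widely expressed forms of metabolic and calcium pump genes. Where a gene had several probe sets, the median of their differences was used, which hides their spread. The probe sets of Acaca, for example, had differences of 0.11 and 0.02. Their values lay between −0.12 for Acacb and Acaca, the acetyl-CoA carboxylases, and 0.04 for Phka1 and Phka2, of phosphorylase kinase, with a median of −0.04 and 3 above 0. Among the pairs of mitochondrial proteins, it was −0.04 for Slc25a4 and Slc25a5, the adenine nucleotide translocators, and −0.11 for Ckmt2 and Ckmt1, the mitochondrial creatine kinases. Ckmt1 and Pygl, the liver glycogen phosphorylase, were as dim as Cox6b2, with control log2 signals of 5.46 and 5.60, and without their pairs the 7 left had a range of −0.12 to 0.04 as well. None of the 24 probe sets of these genes was called lower or higher. In size, the values of the Cox4, Cox6a and Cox8 pairs were larger than all 9, as was that of the Cox6b pair with its dim form, and that of the Cox7a pair was not. The complex IV pairs and the other pairs were not matched for signal, and RMA compresses differences of dim probe sets. The difference between these sets of pairs was not tested.

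**Figure D3:**
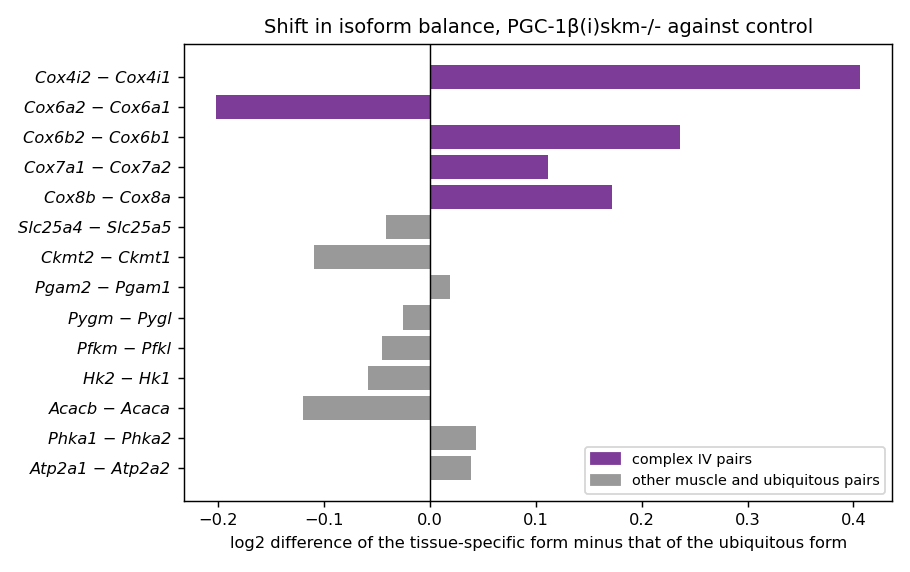
Log2 difference of the tissue-specific form minus that of the ubiquitous form (horizontal axis, PGC-1β(i)skm-/- against control) for the 5 complex IV pairs (purple) and 9 other pairs of muscle and widely expressed forms (grey), with no error since there was 1 array per genotype. The purple bars run from −0.20 to 0.41 and the grey bars from −0.12 to 0.04.

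The subunits of complex IV that have no pair among the members were listed as Cox5a, Cox5b, Cox6c, Cox7b, Cox7c and Ndufa4, and 5 of these 6 genes were measured by 8 probe sets of 1 gene symbol. All 8 had a negative difference, and their median was −0.15. Cox5b was the one called lower, by both of its probe sets, from 12.43 in control to 12.07 in mutant muscle on the log2 scale for the first and from 12.39 to 12.02 for the second. Ndufa4, once counted as a complex I subunit, had log2 signals of 11.53 and 11.27, and Cox5a, which like Cox5b lies on the matrix side, 11.38 and 11.19. Cox6c had differences of −0.11 and −0.05 and Cox7b of −0.04 and −0.03 in their pairs of probe sets, the smallest among these subunits. Cox7c had only probe sets shared with another gene and is not described.

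Of the remaining relatives, Cox7a2l, a relative of Cox7a2, had differences of −0.17 and −0.18 in its probe sets, next to −0.19 for Cox7a2. Ndufa4l2 had a difference of 0.0025, and Cox8c and Cox7b2, known from testis, had control log2 signals of 6.35 and 4.22 and differences of −0.00018 and −0.06. From mitochondrial DNA, mt-Co2, of the catalytic core, had differences of 0.04 and 0.04. Of 19 assembly factors measured by 20 probe sets, 18 probe sets had a negative difference (median −0.10). Taco1, an activator of translation of a core subunit other than mt-Co2, was called lower (log2 signals 8.82 and 8.46). The largest increase among them was that of Cox17, a copper chaperone (7.45 and 7.65), which like Cox6a1 had a difference above 0.

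**Figure D4:**
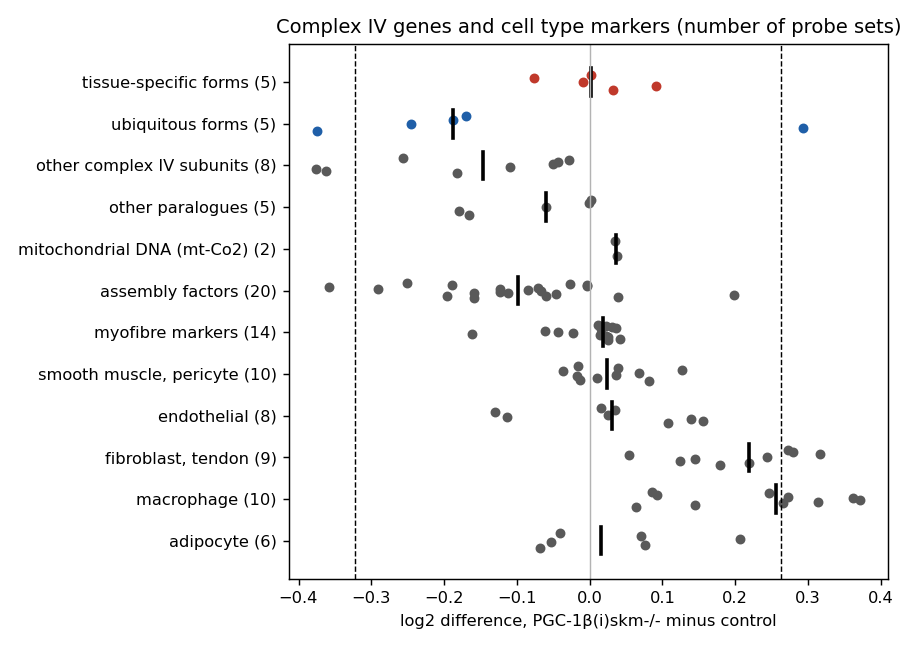
Log2 differences (horizontal axis, mutant minus control) of the probe sets of complex IV genes and of cell type markers by list (vertical axis, with the number of probe sets), with black bars at the medians and dashed lines at ratios of 0.8 and 1.2. Medians were −0.19 for ubiquitous forms, 0.0017 for tissue-specific forms, 0.22 for fibroblast and tendon markers and 0.26 for macrophage markers.

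Because ubiquitous isoforms are also made by the other cells of a muscle, markers of these cells are given beside them. In pooled tissue, fewer cells of a type and less RNA per cell cannot be told apart. All 9 fibroblast and tendon markers had a higher signal on the mutant array, with a median difference of 0.22 and 3 called higher, and their summed linear signal was 12447 in control and 14230 in mutant muscle. All 10 macrophage markers had a higher signal, with a median of 0.26 and 5 called higher, and a summed signal of 1605 and 1916. Over all probe sets with 1 gene symbol, 1.65% were called higher and 50.0% had a negative difference. The marker lists were chosen with earlier results of these arrays known, so that nothing is read from these counts. The largest differences of these lists were 0.32 for Fmod, of tendon matrix, and 0.37 for C1qa, of complement. The smallest were 0.05 for Pdgfra and 0.06 for Cd68. The difference of Cox6a1, 0.29, lay above the medians of both lists and below Fmod and C1qa, and the part of these cells in it was not tested. Cox4i1, Cox6b1, Cox7a2 and Cox8a had negative differences, and the part of these cells in those differences was not tested either.

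Markers of smooth muscle and pericytes, in which Cox4i2 is known to be expressed, had a median difference of 0.02, with 6 of 10 above 0 and summed signals of 6154 and 6354. The difference of Cox4i2 was 0.03. Endothelial markers had a median of 0.03 with 6 of 8 above 0, and adipocyte markers of 0.02 with 3 of 6 above 0. Ucp1, the defining gene of brown fat, a tissue that also expresses Cox7a1 and Cox8b, was dim at log2 signals of 4.80 and 4.76. The 14 myofibre markers had a median of 0.02, with 0 called lower or higher, and the muscle isoforms Cox6a2, Cox7a1 and Cox8b differed from 0 by no more than 0.09. Myh1, the type IIX myosin, had the largest difference of the myofibre markers, −0.16. The 3 measured Schwann cell markers were all below 0, with Mbp, of myelin, at −0.34 and called lower.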

How the data were processed

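Biotinylated cDNA from 150 ng of total RNA of each pool was hybridized to Affymetrix Mouse Gene 1.0 ST arrays. The authors deposited one log2 signal for each probe set, computed by RMA with default settings. Quantile normalization within RMA hides a change common to all genes, and differences of dim probe sets are compressed in RMA signals. Gene names came from the platform annotation, with 21698 of 21789 probe sets of 1 symbol matched by Entrez ID to RefSeq (GRCm38.p6); the 1621 probe sets of several genes and 12146 without an entry were left out. The build to which probe sets were designed is not given here.

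Log2 differences, ratios, medians and counts were computed with Python 3.11.15, pandas 2.3.3 and numpy 2.4.6, with no filter on signal, and the calculation was tested on simulated data. No test was possible with 1 array per genotype. Members and lists (16 lists, 137 genes, 17 of them without a probe set of their own) were chosen with earlier results of these arrays known. All members and Ppargc1b are named, as are all measured complex IV subunits and paralogues. Of assembly factors and other pairs, those past a threshold or with the largest difference are named, and of marker lists up to 2 genes with a large difference, besides Acta1 and Ckm, given to check the tissue, and Ucp1, given as dim. The marker list of red blood cells had 1 measured gene, Alas2, with a difference of −0.04. Alternatives were subtraction of the median difference or of a loess curve on signal (statsmodels 0.14.6, span 0.3), minimum mean signals of 6 and 7 on the log2 scale, other ways to treat probe sets of a gene, a pseudocount of 32, and thresholds of 1/1.2 with 1/0.8 and of 1.5-fold. The sequences are RefSeq promoters.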

Additional observations from a re-analysis of the deposited data

How the results depend on the processing

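Subtraction of a loess curve on signal moved the values of single members, pairs and medians by at most 0.03 on the log2 scale. The median of the tissue-specific isoforms, 0.0017 as reported, was then −0.01, which is the value of Cox8b. The sign of Cox8b thus changed, so that the count of 2 of 5 tissue-specific isoforms below 0 depends on the processing. Each member has 1 probe set of its own and no probe set of several genes lists a member, so that the other ways to treat probe sets could not change a value, nor could the filters change a member that passed them, and the median subtracted was −0.0001. Cox6b2 and its pair gave no value under the minimum signals of 6 and 7, and the median of the tissue-specific isoforms without Cox6b2 was 0.017. With the thresholds at 1/1.2 or less and 1/0.8 or more, 0 members were called higher in place of 1, since the ratio of Cox6a1 was 1.23, and 1 was still called lower. At 1.5-fold, 0 members were called lower and 0 higher. The other 17 counts of members called were equal to those reported. Among probe sets with a mean of 11 or above, a range chosen after the data were seen, 1.26% were called lower in place of 0.665%. No paired analysis was possible because there was 1 array per genotype, and for the same reason no array could be left out. Whether the probe sets of a pair detect each other's transcripts was not tested, since probe sequences were not used here.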
